A study of Rattus norvegicus with 2 samples.

Results

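The cytosolic and mitochondrial heat shock proteins were examined in the duodenal mucosa of an immobilized rat, housed for 2 weeks in an immobilization cage, and of a control rat, housed in a metabolic cage over the same time. The members were 10 genes chosen by name, Hspa1a, Hspa1b, Hspa8, Hspa9, Hspa4, Hsp90ab1, Hspb1, Hspd1, Hspe1 and Dnaja1, and every probe set annotated to any of them was taken. They had 27 of the 8799 probe sets on the rat U34A array, an Affymetrix oligonucleotide array, and were 10 of the 5147 genes with a probe set. Both animals were male Wistar rats of 15 weeks, and 1 array was hybridised for each group. The labels describe 1 rat per array and do not say whether RNA was pooled. Since each group has 1 array, no difference could be checked on replicates, no test between the groups could be made, and each value below describes this pair of arrays.

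Heat shock proteins are molecular chaperones, which bind unfolded or partly folded proteins and help them to fold, cross membranes or reach the proteasome. The Hsp70 proteins work in cycles of ATP hydrolysis that J-domain proteins start and nucleotide exchange factors end, Hsp90 matures client proteins such as kinases and steroid receptors, and Hsp60 with its lid Hsp10 forms the folding chamber of the mitochondrial matrix. Some are made in every cell, and others are made mainly under heat or other stress, when heat shock factor 1 binds paired GAA and TTC units in their promoters. In the gut, inducible Hsp70 and the small protein Hsp27 are known for protecting the epithelium.

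The deposited values are signal intensities on a linear scale, and a factor of 1.016 applied to the immobilized rat's array set the median log2 ratio to 0 among probe sets exceeding the signal floor. The floor, the 50th percentile of all signals, was 39.9, and a ratio was taken only where both arrays exceeded it. All signals given below are scaled, and each ratio is that of the immobilized over the control rat. The technical SD, the spread of log2 ratios among probe sets for one gene, was 0.31 over 696 genes, which is error within this pair of arrays and not a spread between animals. This SD was smaller for bright probe sets, 0.23 in the brightest class (mean signal of 540.2 or more) and 0.32 in the dimmest (154.8 or less). Of the 15 listed markers of villus enterocytes, 13 had a probe set, and all 13 exceeded the floor on both arrays.

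Most heat shock probe sets had somewhat higher signals in the immobilized rat, and none differed by 2-fold. Of the 27 probe sets, 20 exceeded the floor on both arrays and 7 on neither. Among the 20, 17 had a ratio above 0, as did 50% of all 4105 probe sets above the floor, and 3 a ratio below 0. The log2 ratios of the 20 ran between -0.24 and 0.99, with a median of 0.32, beside a median of 0.00 over all probe sets. At 2-fold either way stood 0 of the 20, against 3.19% of all probe sets, and at 1.5-fold higher 4 of the 20, against 8.89%. Farther than 2 technical SD from 0 were 4 of the 20, against 12.5% of all. The probe sets of 1 gene share their RNA and in some cases their source sequence, so the 20 values are not independent.

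**Figure D1:**
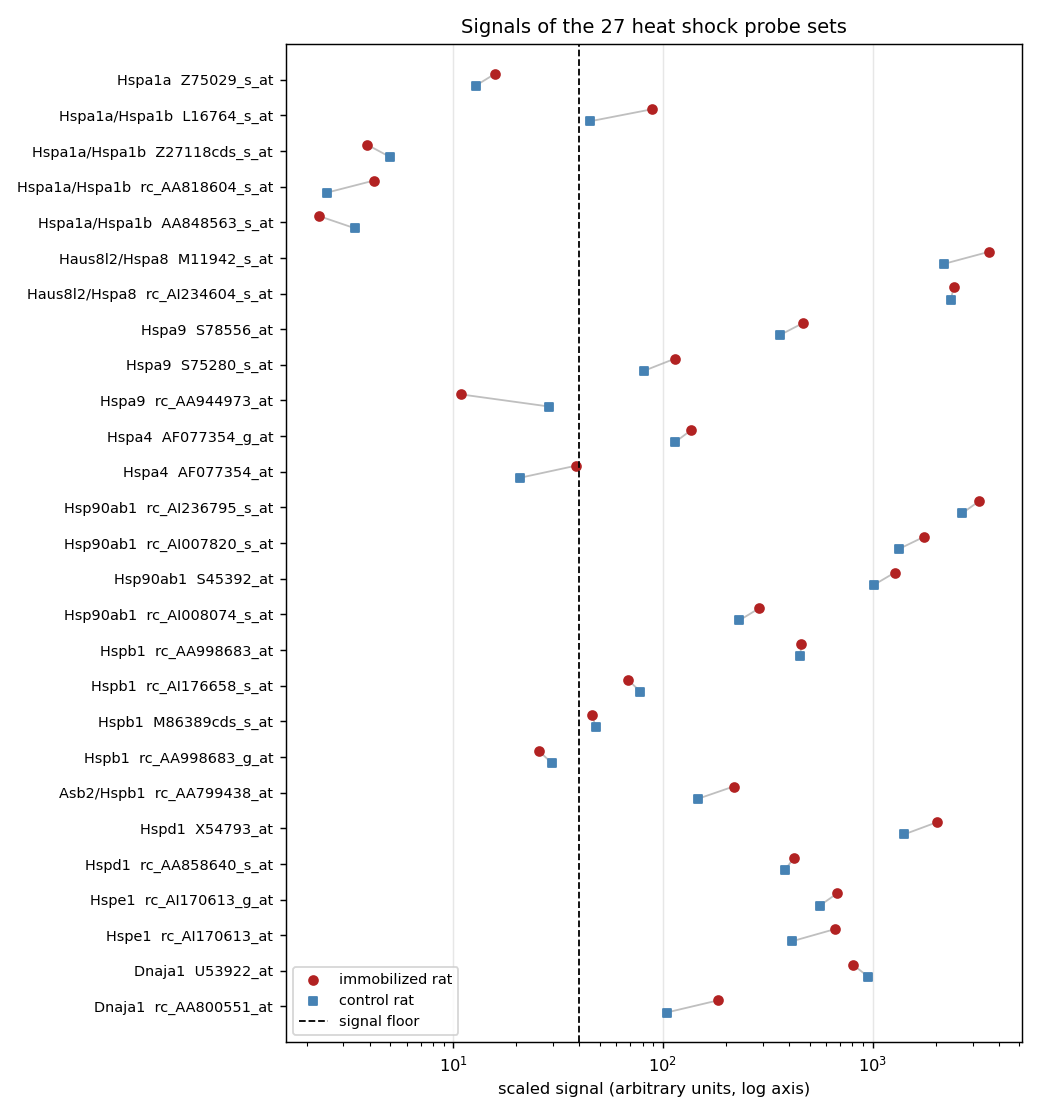
Scaled signal (arbitrary units, log axis) of each of the 27 heat shock probe sets on the immobilized rat's array (red circles) and the control rat's array (blue squares), with the floor of 39.9 as a dashed line. The 5 probe sets naming Hspa1a include 4 left of the floor on both arrays, while both probe sets annotated to Hspa8 have at least 2182 on each.

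Taken by gene, each at its brightest probe set with a single symbol, 8 of the 10 members had a probe set of their own and 7 exceeded the floor on both arrays. Of the 7, 6 had a ratio above 0, against 49.4% of 2524 genes, and 1 below. The 1 below was Dnaja1, whose probe sets went opposite ways. The 6 include Hspb1 at a log2 ratio of 0.02, which was -0.006 with signals as deposited. None of the 7 was 2-fold higher (2.02% of all genes) or lower (0.674%). Their median log2 ratio was 0.27, beside -0.01 over all genes. The remaining member with its own probe set, Hspa1a, was above the floor on neither array. Hspa8 and Hspa1b were measured only by probe sets annotated to several genes, and these are described by their annotation and entered no gene value.

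The mitochondrial chaperones Hspd1, Hspe1 and Hspa9 had higher signals in the immobilized rat at all 6 of their probe sets with a ratio. The median of these on the log2 scale was 0.43. The cytosolic members were higher at 11 of 14 probe sets and lower at 3, with a median of 0.29. These 14 include probe sets shared with other genes and 4 of Hsp90ab1, all 4 higher. A ratio above 0 was thus not particular to the mitochondrial probe sets. By gene, the cytosolic log2 ratios were 0.27 for Hsp90ab1, 0.26 for Hspa4, 0.02 for Hspb1 and -0.24 for Dnaja1. Each lay within 1 technical SD of 0, as did the mitochondrial Hspe1 at 0.27. Over all probe sets above the floor, 50% had a ratio above 0. Hspd1 encodes Hsp60, the barrel of the mitochondrial folding chamber. At X54793_at, its brighter probe set, the Hspd1 signal was 2028 in the immobilized rat and 1417 in the control rat, a ratio of 1.43 or 0.52 on the log2 scale. At rc_AA858640_s_at the Hspd1 signal was 423 in the immobilized rat and 381 in the control rat, a log2 ratio of 0.15. Both probe sets were thus higher in the immobilized rat, the brighter by 1.67 technical SD and the other by 0.49. Of all 2524 genes, 17.3% lay as far from 0 as Hspd1 or farther. The shares were 30.7% for Hspa9 and 43.3% for Hspe1, each gene at its brightest probe set.

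Hspe1 encodes Hsp10, the lid that closes the Hsp60 barrel. Its probe set rc_AI170613_at had a signal of 661 in the immobilized rat and 413 in the control rat, a ratio of 1.60 (log2 0.68). Its partner rc_AI170613_g_at, named for the same source sequence, had 677 in the immobilized rat and 560 in the control rat, a ratio of 1.21 (log2 0.27). The direction was shared, and the sizes differed by 0.41 on the log2 scale, 1.31 technical SD.

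Hspa9 encodes mortalin, the Hsp70 of the matrix, which pulls precursor proteins through the inner membrane and passes them to the folding chamber. S78556_at gave Hspa9 a signal of 465 in the immobilized rat and 359.9 in the control rat, a log2 ratio of 0.37. S75280_s_at gave 114 in the immobilized rat and 81.1 in the control rat, a log2 ratio of 0.49. These ratios lay within 0.12 of each other, which is 0.38 technical SD. A further Hspa9 probe set, rc_AA944973_at, was below the floor on both arrays (10.9 in the immobilized rat and 28.6 in the control rat), so its order has no weight.

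Hspd1 and Hspe1 are neighbours that are read in opposite directions on rat chromosome 9, where their annotated 5′ ends overlap by 6 bases, and their promoter windows are shown because both genes had higher signals. In the RefSeq promoter table (build GRCr8), which holds 250 bases before and 50 after each start, the start bases of the windows lie 290 bases apart, since that of Hspd1 is 295 bases inside the annotated gene, and the windows share 211 bases. The Hspe1 window is chr9:64084077-64084376 on the plus strand. Capitals mark paired units of the heat shock element, GAANNTTC or TTCNNGAA, each of which reads the same on both strands, and neighbouring pairs overlap by 3 letters. The first 60 bases of the Hspd1 window, chr9:64084228-64084287 on the minus strand, hold the same letters read from the other side.
Hspe1: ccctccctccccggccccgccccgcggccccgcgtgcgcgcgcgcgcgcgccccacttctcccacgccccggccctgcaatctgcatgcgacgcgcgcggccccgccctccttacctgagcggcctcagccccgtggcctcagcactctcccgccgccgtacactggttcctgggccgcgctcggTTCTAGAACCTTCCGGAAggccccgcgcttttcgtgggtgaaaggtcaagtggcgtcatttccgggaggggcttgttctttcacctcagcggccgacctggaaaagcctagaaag
Hspd1: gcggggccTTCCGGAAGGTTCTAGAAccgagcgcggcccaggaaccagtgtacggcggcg
In these sequences 3 pairs overlap to form a run of 4 units, between -65 and -48 from the Hspe1 start and between -242 and -225 from the start base of the Hspd1 window. The run lies inside the annotated Hspd1 gene. Such a run occurs in 16 of 33465 promoter windows (0.0478%), a count that includes both of these.

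**Figure D2:**
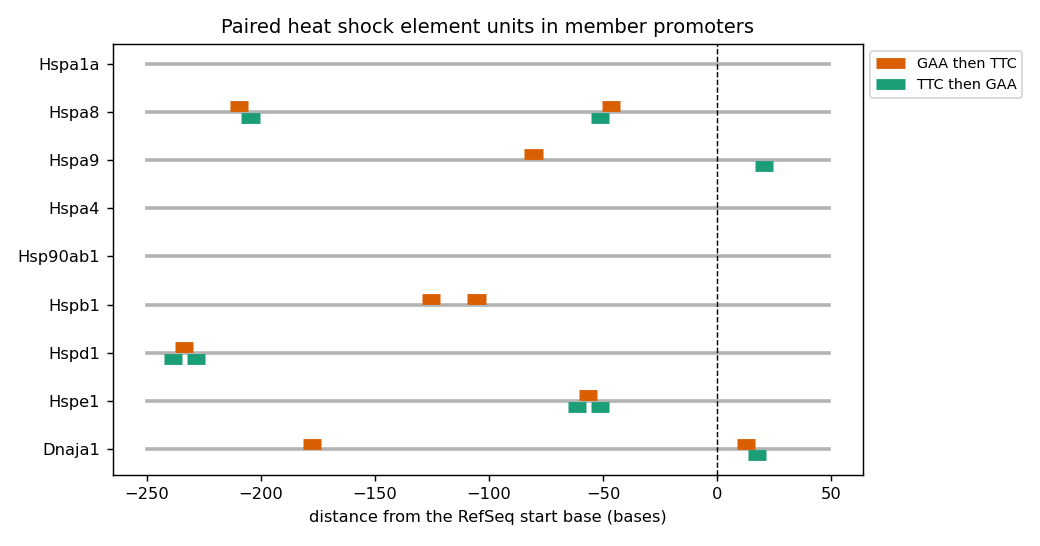
Positions of paired heat shock element units (orange, GAA then TTC, and green, TTC then GAA) in the promoter windows of 9 members, as distance in bases from the RefSeq start. Hspd1 and Hspe1 carry overlapping triplets, Hspa8 carries a pair of overlapping doublets, and Hspa1a, Hspa4 and Hsp90ab1 have no match in the window.

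Of the 9 members with a promoter window, 6 held at least 1 of the pairs, against 15.8% of all windows, and 3 held none. Hspd1 and Hspe1 count the same run in both windows. For 4 members the start base of the window lies inside the annotated gene and not at its 5′ end. The distances are 4560 bases for Hspa9, 2159 for Hspa4, 295 for Hspd1 and 174 for Hsp90ab1. The match counted for Hspa9 and the lack of one for Hspa4 thus describe sequence far inside the annotated gene. Taken separately, GAANNTTC occurred in 8.59% of all windows and TTCNNGAA in 8.77%. Overlapping pairs, a run of at least 3 units, occurred in 4 of the 9 windows, those of Hspa8, Hspd1, Hspe1 and Dnaja1, and in 0.798% of all. A match is a description of letters, and its absence says only that they are not in this window. Whether a match goes with a higher signal was not tested. The windows without a match were those of Hspa1a, Hspa4 and Hsp90ab1, the latter pair starting inside the annotated gene. Hspb1 had matches at -129 and -109 from its start. Its stretch from -140 to -91, chr12:26432392-26432441 on the minus strand, is set beside that of Dnaja1 from -10 to 49, chr5:60638394-60638453 on the plus strand, to show separate and overlapping pairs.
Hspb1: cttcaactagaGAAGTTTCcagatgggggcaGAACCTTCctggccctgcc
Dnaja1: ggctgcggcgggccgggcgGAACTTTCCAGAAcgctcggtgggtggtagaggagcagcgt

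Hsp90ab1, the constitutive cytosolic Hsp90, had similar ratios at its 4 probe sets, each slightly higher in the immobilized rat. The signals of rc_AI236795_s_at were 3208 in the immobilized rat and 2663 in the control rat, a ratio of 1.21 (log2 0.27). Those of rc_AI007820_s_at were 1750 in the immobilized rat and 1330 in the control rat (log2 0.40). S45392_at had 1274 in the immobilized rat and 1016 in the control rat (log2 0.33), and rc_AI008074_s_at had 288 in the immobilized rat and 231 in the control rat (log2 0.32). The 4 log2 ratios had a mean of 0.33 ± 0.05 (SD over 4 probe sets), a spread well under the technical SD of 0.31 over all genes. The size itself is about 1 technical SD, and 44.1% of all genes lay as far from 0 as the brightest Hsp90ab1 probe set or farther. The stress-inducible cytosolic Hsp90, Hsp90aa1, was covered by probe sets annotated to it and to a pseudogene, and these were looked up after the values of Hsp90ab1 were seen. They differed in direction, with 824 in the immobilized rat and 643 in the control rat at rc_AI176546_at (log2 0.36), and 132 in the immobilized rat and 162 in the control rat at rc_AA944397_at (log2 -0.29).

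The probe sets annotated to Hspa8, the constitutive cytosolic Hsp70 that also uncoats clathrin vesicles, were bright and disagreed in size. Both are annotated to Haus8l2 as well as Hspa8. M11942_s_at had 3585 in the immobilized rat and 2182 in the control rat, a ratio of 1.64 (log2 0.72). The other, rc_AI234604_s_at, had 2436 in the immobilized rat and 2356 in the control rat, a ratio of 1.03 (log2 0.05). The gap of 0.67 on the log2 scale is 2.16 technical SD, so the size of a difference at Hspa8 could not be settled from these arrays. The Hspa8 window, chr8:50080264-50080563 on the plus strand of the rat genome, is shown for its overlapping pairs at -213 and -55, capitals as above.
Hspa8: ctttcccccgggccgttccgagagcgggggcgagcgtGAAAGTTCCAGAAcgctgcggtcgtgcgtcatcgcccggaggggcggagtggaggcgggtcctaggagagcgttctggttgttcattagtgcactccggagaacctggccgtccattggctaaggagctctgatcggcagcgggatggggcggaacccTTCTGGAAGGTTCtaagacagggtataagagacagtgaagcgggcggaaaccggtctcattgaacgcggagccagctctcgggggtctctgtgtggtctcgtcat

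The inducible Hsp70 genes Hspa1a and Hspa1b are near-identical neighbours on rat chromosome 20. Their signals were below the floor on both arrays at all but 1 of their 5 probe sets. The single probe set annotated to Hspa1a alone, Z75029_s_at, had 15.9 in the immobilized rat and 12.8 in the control rat, below the floor on both arrays. Of 4 probe sets annotated to both genes, 3 had signals of at most 5.0 on either array. The fourth, L16764_s_at, had 88.9 in the immobilized rat and 44.8 in the control rat. Its ratio of 1.99 (log2 0.99) was the highest among the members, just short of 2-fold, with the control signal close to the floor of 39.9. As far from 0 or farther were 3.34% of all probe sets above the floor. It is 1 of 5 probe sets for these genes and the only one with a ratio, and which copy it reads cannot be told from the annotation.

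Hspb1, which encodes the small heat shock protein Hsp27, showed little difference at the probe sets that name it alone. Its brightest one, rc_AA998683_at, had 457 in the immobilized rat and 452 in the control rat (log2 0.02, and -0.006 with signals as deposited or trimmed mean scaling). Lower signals in the immobilized rat were measured at rc_AI176658_s_at, with 68.0 against 78.1 in the control rat (log2 -0.20), and at M86389cds_s_at, with 46.1 against 47.8 in the control rat (log2 -0.05). All 3 lay within 1 technical SD of 0. A probe set annotated to both Asb2 and Hspb1, rc_AA799438_at, had 217 in the immobilized rat and 148 in the control rat (log2 0.56), 0.76 above the lowest of the other values. A further Hspb1 probe set, rc_AA998683_g_at, was below the floor on both arrays.

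Dnaja1 and Hspa4 are partners of cytosolic Hsp70, a J-domain protein that delivers substrates and an Hsp110 protein that exchanges its nucleotide. The Dnaja1 probe sets went opposite ways. U53922_at had 806 in the immobilized rat and 955 in the control rat (log2 -0.24), and rc_AA800551_at had 183 in the immobilized rat and 104 in the control rat, a ratio of 1.76 (log2 0.81). They lay 1.06 apart on the log2 scale, 3.41 technical SD and the widest range among the members, so no direction is given for Dnaja1. Hspa4 had a single probe set above the floor, AF077354_g_at, with 136 in the immobilized rat and 114 in the control rat (log2 0.26), within 1 technical SD of 0. Its partner AF077354_at had 38.5 in the immobilized rat and 20.8 in the control rat, below the floor.

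**Figure D3:**
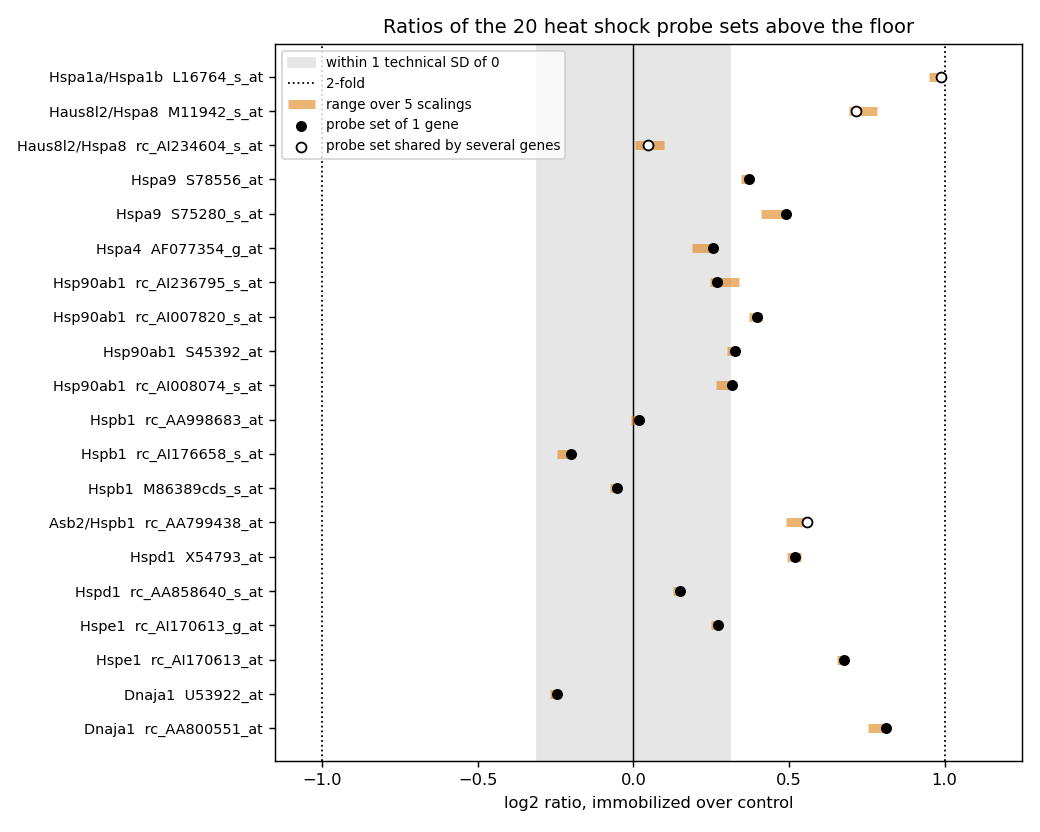
Log2 ratio (immobilized over control) of the 20 heat shock probe sets above the floor, filled for probe sets of 1 gene and open for shared ones, with the range over 5 scalings in orange, the technical SD of 0.31 as a grey band and 2-fold as dotted lines. The 4 Hsp90ab1 values lie close together near 0.33, whereas those of Dnaja1 lie 1.06 apart.

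**Figure D4:**
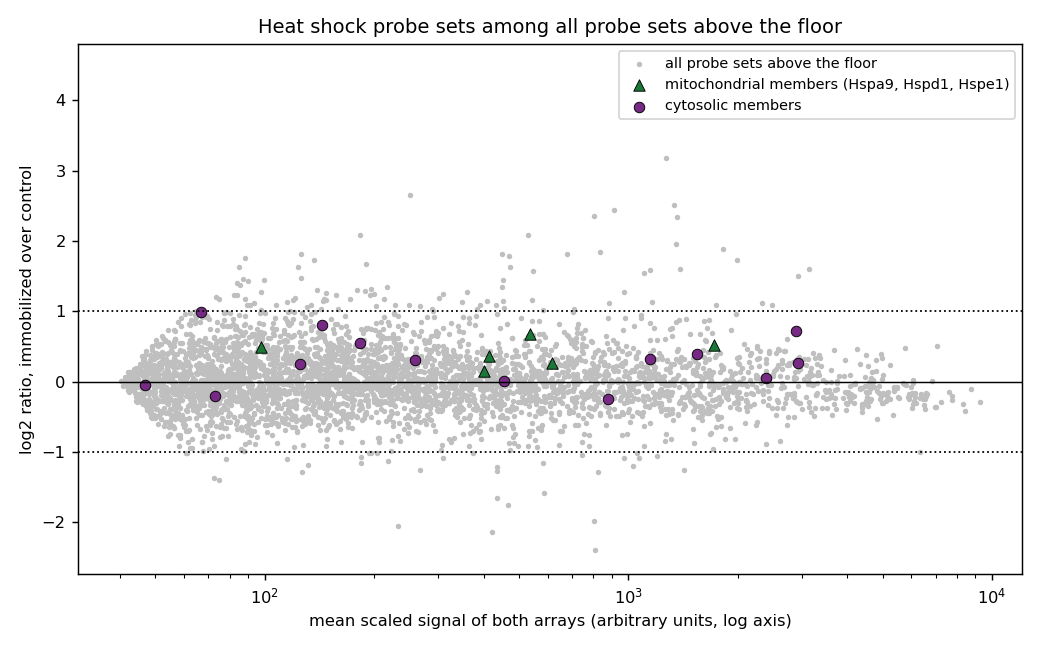
Log2 ratio (immobilized over control) against mean scaled signal (log axis) for all 4105 probe sets above the floor (grey), with mitochondrial members as green triangles and cytosolic members as purple circles. All 6 mitochondrial and 11 of 14 cytosolic probe sets lie above 0, and no member passes the dotted lines at 2-fold.

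Other chaperone and co-chaperone genes, from a list of 68, were more evenly divided. A probe set of their own was found for 33. Of these, 27 exceeded the floor on both arrays, with ratios above 0 for 17 and below 0 for 10, and none was at 2-fold. Their median log2 ratio was 0.06, beside 0.27 for the 7 heat shock members and -0.01 for all genes. The highest were Dnaja2, a J-domain partner of Hsp70 (log2 0.82, but -0.43 at its lowest probe set), the mitochondrial import receptor Tomm20 (0.73, and 0.00 at another), Dnajc5, the J-domain protein of secretory vesicles (0.57, and -0.54 at another), the Hsp90-binding cyclophilin Ppid (0.36), the cytosolic chaperonin subunit Cct3 (0.25) and the prefoldin subunit Pfdn2 (0.24). As with Dnaja1, the high values of Dnaja2, Tomm20 and Dnajc5 were not shared by their other probe sets. The lowest were the mitochondrial J-domain protein Dnaja3 (-0.66) and the collagen chaperone Serpinh1 (-0.64). Both were near the floor in the immobilized rat, with 43.6 for Dnaja3 and 42.7 for Serpinh1. Next were Pdia3 (-0.42, and 0.26 at another probe set) and Hspa5 (-0.31, and 0.02 at another). Grpel1 (-0.26) and the kinase-directing Hsp90 partner Cdc37 (-0.17, and 0.04 at another) followed. Ppid, among the highest, was near the floor too, with 58.4 in the immobilized rat and 45.6 in the control rat.

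Grpel1 and Dnaja3, partners of Hspa9, had lower signals in the immobilized rat, each at a single probe set. Grpel1, the nucleotide exchange factor of mitochondrial Hsp70, had 217 in the immobilized rat and 261 in the control rat. Its log2 ratio of -0.26 lay within 1 technical SD of 0. Dnaja3, the J-domain partner of mitochondrial Hsp70, had 43.6 in the immobilized rat, near the floor, and 68.9 in the control rat. Trap1, the mitochondrial Hsp90 (named after its values were seen), had 224.9 in the immobilized rat and 225.1 in the control rat (log2 0.00). The remaining mitochondrial gene on the list above the floor was Tomm20, given above. Timm44 was below the floor on both arrays, with 25.4 in the immobilized rat and 35.4 in the control rat. In the endoplasmic reticulum, the Hsp70 Hspa5 and the Hsp90 Hsp90b1 (Hsp90b1 named after its values were seen) were lower at 4 of 5 probe sets above the floor, while 50% of all probe sets had a ratio above 0. Hspa5 had 1269 in the immobilized rat and 1573 in the control rat at its brightest, and Hsp90b1 had 598 in the immobilized rat and 670 in the control rat (log2 -0.16). Of the 7 endoplasmic reticulum genes on the list above the floor, 3 were higher and 4 lower, with a median of -0.16. The 3 include Canx (named after its values were seen), at 0.13 at its brightest of 5 probe sets and -0.78 at its lowest. Hsf1, the gene of the heat shock factor (named after its values were seen), had 224 in the immobilized rat and 211 in the control rat (log2 0.09).

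**Figure D5:**
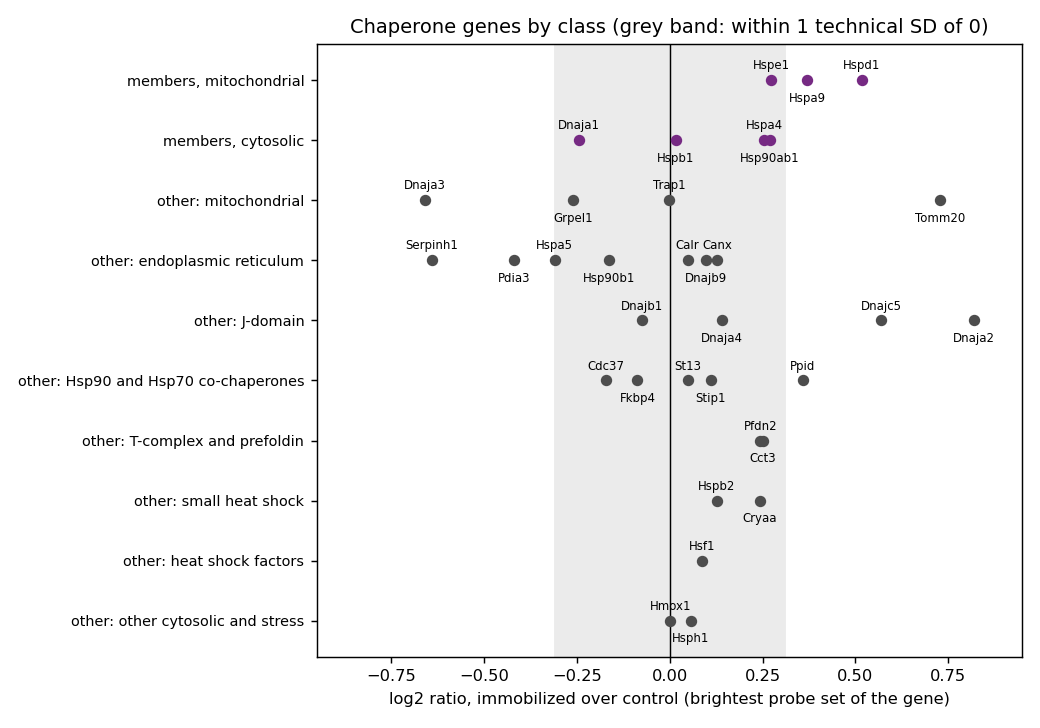
Log2 ratio (immobilized over control) of each chaperone gene at its brightest probe set, by class, with members in purple, other listed genes in dark grey and the technical SD of 0.31 as a grey band. The 3 mitochondrial members lie right of 0, while of the 4 other mitochondrial genes Grpel1 and Dnaja3 lie left of it, Trap1 at 0.00 and Tomm20 at 0.73.

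Markers of other cell types differed between the arrays beside these values. Exocrine pancreas genes were higher in the immobilized rat for 15 of 16 above the floor (median log2 ratio 0.76, 5 at 2-fold), with summed signals of 13765 in the immobilized rat and 7437 in the control rat. Among all genes above the floor, 49.4% had a ratio above 0 and 2.02% were at least 2-fold higher. Crypt and cycling genes were higher for 7 of 7 (median 0.52, 2 at 2-fold), with sums of 1770 in the immobilized rat and 1281 in the control rat. Villus enterocyte genes were lower for 12 of 13 (median -0.21), with sums of 58445 in the immobilized rat and 67012 in the control rat. The medians were 0.55 for 4 smooth muscle genes, 0.16 for 4 leukocyte genes, -0.23 for 5 goblet and Paneth genes and -0.31 for 2 erythrocyte genes. Within these small lists the log2 ratios ran widely. They lay between -0.016 and 1.678 for smooth muscle and between -0.371 and 1.63 for leukocytes. For goblet and Paneth genes they lay between -1.979 and 1.725, and for erythrocyte genes between -0.506 and -0.113. No marker with a probe set was at 0 on both arrays. The part of these cells in the heat shock values was not tested, and in bulk tissue fewer cells of a type and less RNA per cell cannot be told apart. Over 9 probe sets above the floor that read spike-in controls, the median log2 ratio was -0.21, and 7 were lower in the immobilized rat.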

How the data were processed

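The deposited signal intensity values, 1 per probe set on a linear scale, were made by the authors from the scans. The design text names the array maker's software, version 4.0, with filtering and normalization, and the submitters' processing notes name MAS5, so the algorithm is unsettled. The 2% trimmed means were 215.9 in the immobilized and 216.0 in the control rat. Groups were read from the sample titles.

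Array annotation gave 1 symbol for 7006 probe sets, several for 308 and none for 1426, beside 59 controls. Symbols were updated by gene ID. Each gene stood at its brightest probe set with 1 symbol (4736 genes). The immobilized array was scaled by 1.016, the floor set at the 50th percentile, and log2 ratios taken above it. With 1 array per group there was no test, and the number of arrays limits the precision.

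The members and lists were chosen with earlier results of these data known. All members were named, and of other chaperones the 6 highest and 6 lowest. Alternatives were other scalings (as deposited, trimmed mean, quantile, loess with span 0.3), floors (30th and 70th percentiles), folds (1.5 and 3), probe set means, bounds counted and probe sets counted. Allowing shared probe sets, leaving them out, and counting probe sets above 0 under each scaling and floor were added after seeing the data. Scaling and counting were tested on simulated data. Promoters came from RefSeq (GRCr8), with 9 of 10 members matched. Planned protein identities were not computed here. Tools were Python 3.11.15, numpy 2.4.6, pandas 2.3.3, statsmodels 0.14.6 and matplotlib 3.10.9.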

Additional observations from a re-analysis of the deposited data

How the results depend on the processing

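No paired analysis was possible because each group has 1 array. No heat shock gene passed 2-fold under any setting tried, shared probe sets included. At the 1.5-fold threshold, none of the 7 genes passed at its brightest probe set with a single symbol. Among the 20 probe sets, shared ones included, 4 were at least 1.5-fold higher. The median over member genes ranged from 0.245 to 0.327 over 9 settings. Probe sets above 0 numbered 16 of 20 with signals as deposited or trimmed mean scaling, where Hspb1 had -0.006, and 13 of 14 with the floor at the 70th percentile. They were 13 of 16 among probe sets of 1 gene only. Of 48 single-gene values under alternatives, 47 stayed within 1 technical SD of the value reported. The exception was Dnaja1, at 0.284 with its probe sets averaged, which turned its sign. Averaging also put Hspb1 at -0.078, Hspd1 at 0.334 and Hspe1 at 0.476. The margin of 0.31 is wider than the reported log2 ratios of Hspa4, Hsp90ab1, Hspb1 and Hspe1. Staying within it therefore says little about these genes. The median of other chaperones stayed between 0.016 and 0.059. The count of all genes past 2-fold, 68, was 181 and 31 with the floor at the 30th and 70th percentiles, 334 at 1.5-fold, 9 at 3-fold and 131 with probe sets counted. Dim signals limit Hspa1a and Hspa1b.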
